A study of Bos taurus with 12 samples.

Results

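The genes described here are those of 5 families of pre-mRNA splicing proteins in bovine expanded blastocysts. They were chosen by symbol alone, as the genes named SRSF, HNRNP, SNRP, SF3A, SF3B or LSM followed by a number or letter, without the imprinted SNRPN. This gave 64 of the 32637 genes in the table of counts, namely 11 SR proteins, 20 hnRNPs, 11 SNRP proteins, 9 subunits of SF3A and SF3B, and 13 LSm proteins. All 64 are annotated as protein-coding, 63 lie on autosomes and 1, HNRNPH2, lies on the X chromosome. Expression was measured by RNA-seq in 11 libraries of embryos produced in vitro, collected as expanded blastocysts on Day 7 or Day 8 and sexed by PCR, 6 female and 5 male. A library was made from polyA RNA of 2 halved blastocysts of one sex, so each replicate is a pool, with no value for a single embryo. No group carried a treatment or a mutation. Semen of a pair of bulls was used in rotation, and the labels do not say which bull sired a pool.

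The spliceosome removes introns in a series of assembly steps in which small nuclear ribonucleoproteins (snRNPs) recognise the ends of the intron and are then rearranged for catalysis. A ring of Sm proteins holds the RNA of most snRNPs and a related ring of LSm proteins holds that of U6, while SF3A and SF3B are the parts of the U2 snRNP that settle on the branch point. SR proteins mostly promote the inclusion of the exons that they bind, and hnRNPs, which coat nascent transcripts, often act against them, so that the balance of these regulators sets many splicing choices. In the early embryo these proteins are needed once the embryo transcribes its own genome and has to process the new transcripts.

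The libraries held from 6664112 to 21392764 counts on genes, and the 64 splicing genes together took from 1.59% to 1.98% of them. All 64 genes had at least 10 counts in every library. The labels were checked with ZRSR2Y, a Y-linked splicing factor gene outside the 5 families, which had 323 to 797 counts in the male libraries and 0 to 11 in the female libraries. Of the blastocyst's markers, all 10 of the trophectoderm and 6 of 7 of the inner cell mass were above 1 CPM in every library. The remaining marker of the inner cell mass, TDGF1, had no row under that symbol. Of the markers of the hypoblast, 4 of 7 passed that level in every library, and GATA4, SOX17 and FOXA2 fell below 1 CPM in several. The highest values of SOX17 and FOXA2 were 1.24 and 0.634 CPM. CPM values are counts divided by the library's size and its TMM factor. The trophectoderm markers summed to between 7879 and 23154 CPM in females and between 9195 and 36145 CPM in males, and male replicate 5 was the highest. That library also stood apart in depth and in the number of genes detected, with the most counts and the fewest genes (14937, against 16985 to 18550 in the others). Of the markers of cumulus cells, which surround the oocyte, 1 of 7 was above 1 CPM in every library, AMH and FOXL2 had 3 counts or fewer in every library, and the sum was from 7.19 to 32.7 CPM in females and from 5.38 to 29.5 CPM in males. In bulk samples such as these, a different number of cells of a type and a different amount of RNA per cell cannot be told apart.

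The study compared male with female embryos to find sex-biased expression. Of 12802 tested genes, those with both an adjusted p (FDR) under 0.1 in the edgeR test and a fold change over 1.5 were called sex-biased, and log2 fold changes are positive where males were higher. The test called 2 genes of the 5 families. HNRNPH2, an X-linked hnRNP of the H/F group, was female-biased, and LSM4, a subunit of both LSm rings, was male-biased. These 2 of 64 genes are 3.12%, beside 1.91% of all tested genes, of which 1.5% were female-biased and 0.414% male-biased. Of the 63 autosomal genes 1 was called (1.59%), beside 0.707% of all tested autosomal genes. DESeq2 called the same genes of the 5 families, beside 4.77% of all tested genes and 2.9% of the autosomal ones. At an unadjusted p under 0.05 stood 8 of the 64 genes, 7 of them higher in males and 1 in females, where 13.2% of all tested genes did (6.26% higher in males and 6.95% in females). Of the 63 autosomal genes 7 had such a p, where 11.1% of all tested autosomal genes did. A fitted log2 fold change above 0 was found for 38 of the 64 (59.4%), against 50.5% of all tested genes. Among autosomal genes these shares were 60.3% and 52.4%. The median over the 64 genes was 0.08 and over all tested genes 0.01. In all libraries of one sex above all of the other were 2 genes, HNRNPH2 in females and SNRPD3 in males, where 3.31% of all tested genes were so separated (females above for 1.88% and males above for 1.43%).

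**Figure D1:**
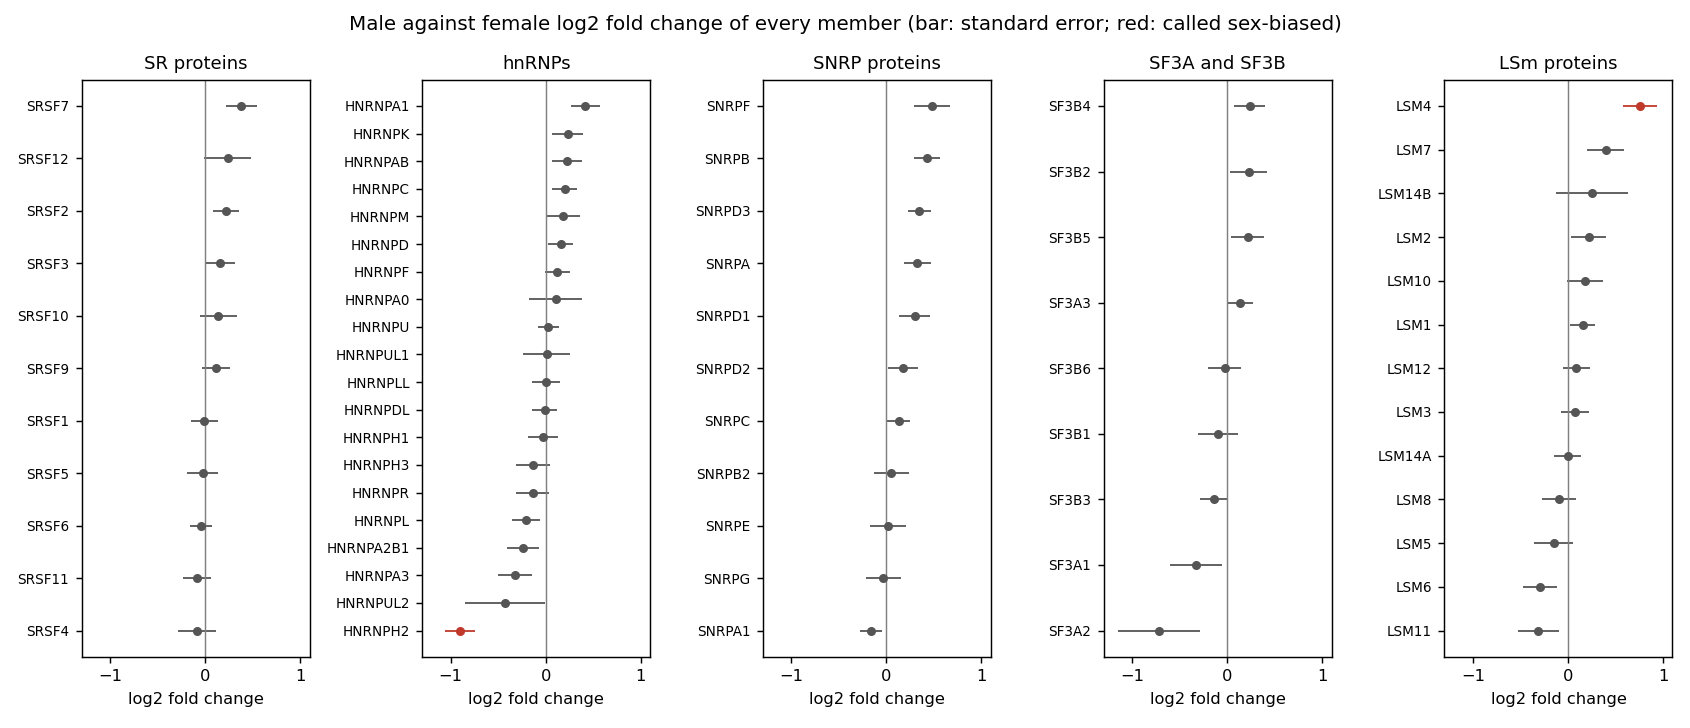
Fitted log2 fold change (male against female, horizontal axis, no unit) of each of the 64 genes, one panel per family, with the standard error as a bar and the genes called sex-biased in red. HNRNPH2 lies far to the left of the other hnRNPs at -0.90 and LSM4 to the right of the other LSm proteins at 0.76, while 9 of the 11 SNRP proteins lie above 0.

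Among the 20 hnRNPs, HNRNPH2 (chrX:50797754-50803596 in ARS-UCD2.0) was the gene that differed between the sexes. It binds runs of guanines near splice sites, as do its relatives HNRNPH1, HNRNPH3 and HNRNPF. Female libraries had from 139 to 191 CPM with a median of 150.4 CPM. Male replicates 1 to 5 had 84.4, 84.6, 102, 84.5 and 61.1 CPM. Every female library was thus above every male library, and male replicate 5 was the lowest of all. The female mean was 158 ± 21.5 CPM (SD, n = 6) and the male mean 83.2 ± 14.4 CPM (SD, n = 5). This was a log2 fold change of -0.90 with a standard error of 0.16, and edgeR's quasi-likelihood test gave an adjusted p of 0.0189 (Benjamini-Hochberg). Within libraries that share the first number of their name, the difference in log2 CPM was -0.72, -0.72 and -1.20. The set with number 2 held 1 male library. As every female library was above every male one, the sign in each set was fixed in advance and adds no support. It was called in each fit without one library, with values from -0.95 to -0.79. Of all tested X-linked genes, 27.7% were called female-biased by the same test, as HNRNPH2 was. Of the 476 of them, 139 also had every female library above every male library.

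The relatives of HNRNPH2 lie on autosomes and were not called. HNRNPH1, the closest of them, on chr7:1694622-1703640, was between 270.2 and 371 CPM in females with a median of 321 CPM. In males HNRNPH1 was at 401, 293, 367, 287 and 195 CPM. The male values spanned the whole range of the female ones, with the highest and the lowest library both male. Its log2 fold change was -0.03 (standard error 0.16, edgeR adjusted p = 0.967). HNRNPH3 (chr28:24751331-24762284) ran from 197 to 286 CPM in females with a median of 219.7 CPM, and male libraries had 226, 153, 279, 221 and 128 CPM. The lowest values again were male, replicates 2 and 5, but the other 3 male libraries lay within the female range. For HNRNPH3 the log2 fold change came to -0.14 (standard error 0.18, edgeR adjusted p = 0.80). HNRNPF (chr28:13803800-13822395) was at 681 to 993 CPM in females with a median of 825 CPM, and at 911, 902, 926, 819 and 934 CPM in males, with all male libraries inside the female range. HNRNPF differed by a log2 fold change of 0.12 (standard error 0.13, edgeR adjusted p = 0.749).

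**Figure D2:**
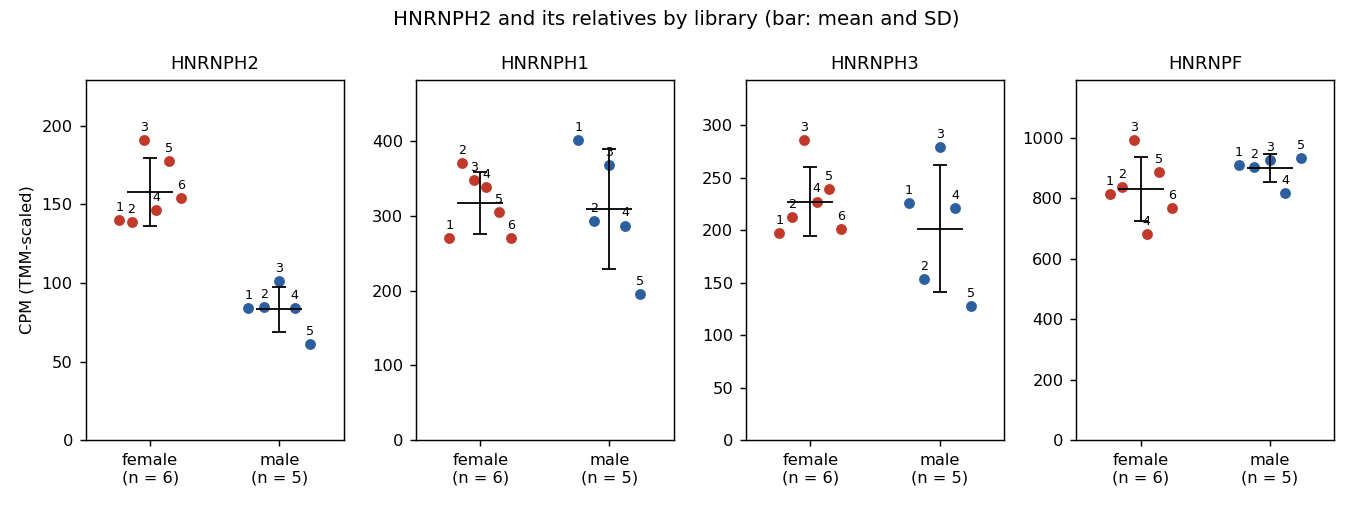
CPM (vertical axis, TMM-scaled) of HNRNPH2, HNRNPH1, HNRNPH3 and HNRNPF in each female (red) and male (blue) library, numbered by replicate, with the mean and SD of each sex as bars. The sexes are apart for HNRNPH2, at 139 CPM or more in females and 102 CPM or less in males, and overlap for the 3 relatives.

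The ratio of counts within a library does not depend on the scaling between libraries. HNRNPH2 had 0.375 to 0.583 counts for each count of HNRNPH1 in female libraries and 0.210 to 0.314 in male libraries. Against HNRNPH3 the ratio was 0.645 to 0.768 in females and 0.364 to 0.552 in males, and against HNRNPF it was 0.166 to 0.215 in females and 0.0655 to 0.110 in males. All 3 ratios were higher in every female library than in every male library. HNRNPH1 and HNRNPH2 are close copies in sequence, and the sources used here do not state how reads that map to both were counted, so their separate levels are uncertain to that extent.

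Of the other 16 hnRNPs, HNRNPA1 (chr5:25779263-25785665), a repressor of exon inclusion, had the smallest p toward males. Female libraries ranged from 678 to 852 CPM with a median of 741 CPM, and male libraries had 901, 888, 1129.5, 823 and 1268 CPM. Male replicate 4 lay below the highest female library, and the other 4 males lay above it. A log2 fold change of 0.42 (standard error 0.15) resulted, which did not pass the test (edgeR adjusted p = 0.25). Male replicate 5 was the highest library, and without it the log2 fold change was 0.30. HNRNPA1 overlaps the annotated NFE2, and the use of strand in counting is not stated. In all, 18 of the 64 genes overlap another annotated gene, among them SNRPA, SNRPD1, SNRPF, LSM2, LSM4 and LSM7. HNRNPA2B1, a close relative of HNRNPA1 that also binds exons and represses their use, was at 1210.3 to 1717 CPM in females and 851 to 1536 CPM in males, and the log2 fold change was -0.24 (standard error 0.17, edgeR adjusted p = 0.588). HNRNPA2B1 was chosen after its values were seen, for male replicate 5, which was its lowest library. HNRNPUL2, which acts in the response to DNA damage as well, was a weakly counted hnRNP at 15 to 122 counts per library. It ran from 4.02 to 8.87 CPM in females (median 4.95 CPM) and was at 6.78, 1.59, 7.66, 2.78 and 2.37 CPM in males. The lowest 3 values were male and the remaining 2 males lay within the female range. HNRNPUL2 differed by -0.43 on the log2 scale with a standard error of 0.42 (edgeR adjusted p = 0.719), and by -0.23 without female replicate 5 and -0.81 without male replicate 1. Over the 20 hnRNPs, 11 had values above 0 and the median was 0.01, as over all tested genes. Apart from HNRNPH2, the log2 fold changes of the family lay between -0.43 and 0.42, short of a fold of 1.5.

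Neither edgeR nor DESeq2 called any of the 11 SR proteins, and 1 of them, SRSF7, had an unadjusted p under 0.05. SRSF7 (chr11:21086080-21091537) is the SR protein with a zinc knuckle beside its RNA recognition motif. Female libraries had from 519 to 715 CPM with a median of 603 CPM, and male libraries had 652, 888, 785, 993 and 571 CPM. Replicates 2, 3 and 4 of the males were above every female library, and replicates 1 and 5 were inside the female range. This gave a log2 fold change of 0.38 (standard error 0.17, edgeR adjusted p = 0.351), and one of 0.23 without male replicate 4. SRSF11 (chr3:74927065-74977459), an SR-related protein that binds the U2AF factor of the 3′ splice site, had the smallest p toward females. It was at 143 to 218 CPM in females and 121 to 193 CPM in males, and the log2 fold change was -0.08 (standard error 0.15, edgeR adjusted p = 0.862). SRSF6 (chr13:72096729-72102392) varied least of all 64 genes, with an SD of log2 CPM of 0.09 over the 11 libraries. Its female libraries lay between 313 and 352 CPM and its male libraries between 278 and 348 CPM, and the log2 fold change was -0.04 (standard error 0.12, edgeR adjusted p = 0.916). SRSF3, the smallest SR protein, and SRSF10, which represses splicing once it loses its phosphates, were chosen after their values were seen and had their highest level in male replicate 4, at 1407 and 1085 CPM. In male replicate 5 they had 888 and 463 CPM, the latter the lowest of the 11 libraries. Over the family, log2 fold changes ran from -0.08 to 0.38 with a median of 0.11, and 6 of 11 were above 0.

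The SNRP proteins were the family with the largest share of values above 0. In 9 of 11 the log2 fold change was above 0, the median was 0.18, and none was called by edgeR or DESeq2. At an unadjusted p under 0.05 were 4 genes, SNRPB, SNRPD3, SNRPF and SNRPA, all higher in males. SNRPF and SNRPA overlap the annotated CCDC38 and ACTMAP. Of the 7 proteins of the Sm ring, which encloses the uridine-rich site of the snRNAs, 6 had a value above 0 with a median of 0.30. SNRPB (chr13:52666510-52675566) codes for the ring proteins B and B′. Female libraries of SNRPB had between 356 and 469 CPM with a median of 423 CPM, and males had 455, 668, 519, 618 and 613 CPM. Male replicate 1 fell inside the female range and the other 4 males were above it. Female libraries averaged 419.8 ± 49.7 CPM (SD, n = 6) and male libraries 575 ± 85.7 CPM (SD, n = 5), for a log2 fold change of 0.42 (standard error 0.13, edgeR adjusted p = 0.189). With DESeq2 its adjusted p was 0.0844 and its log2 fold change 0.43, under the fold of 1.5 that a call asks for.

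SNRPD3 (chr17:71496416-71503668), another protein of the ring, was chosen after its values were seen because it was the gene of the 5 families with every male library above every female one. Females had 494 to 553 CPM with a median of 533 CPM, and males had 639, 672, 645, 814 and 605 CPM. The gap between the sexes was narrow, and male replicate 4 stood above the other males. The means were 529.8 ± 24.5 CPM (SD, n = 6) for females and 675 ± 81.2 CPM (SD, n = 5) for males, and the log2 fold change was 0.35 (standard error 0.12, edgeR adjusted p = 0.249). Separation with males above was found for 1.43% of all tested genes. SNRPF, the ring protein F, was at 22.7 to 38.5 CPM in females and 28.1 to 56.2 CPM in males, and the log2 fold change was 0.48 (standard error 0.19, edgeR adjusted p = 0.297). The remaining ring proteins D1, D2, E and G, from SNRPD1, SNRPD2, SNRPE and SNRPG, had log2 fold changes of 0.30, 0.18, 0.02 and -0.03. SNRPF, SNRPD1, SNRPD2, SNRPE and SNRPG were likewise chosen after their values were seen, to complete the ring.

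The other 4 genes of this family code for proteins of the U1 and U2 snRNPs. SNRPA, the A protein of the U1 snRNP, chosen after its values were seen, was at 83.1 to 116 CPM in females and at 121, 99.5, 154, 126 and 140.1 CPM in males. It overlapped in male replicate 2 alone, and its log2 fold change was 0.33 (standard error 0.15, edgeR adjusted p = 0.366). SNRPC (chr23:8784910-8795627), which codes for the C protein at the pairing of U1 with the 5′ splice site, was among the 3 steadiest of the 64 genes with an SD of log2 CPM of 0.13. It was at 363 to 408 CPM in females and at 420.2, 416, 413, 515 and 384 CPM in males, and its log2 fold change was 0.13 (standard error 0.12, edgeR adjusted p = 0.711). SNRPA1 (chr21:29153369-29166386), the A′ protein of the U2 snRNP, had the smallest p toward females in the family. Female libraries had between 332 and 432 CPM and male libraries between 293 and 358 CPM, for a log2 fold change of -0.17 (standard error 0.12, edgeR adjusted p = 0.59). Its partner SNRPB2, the B″ protein, given after its values were seen, differed by 0.05 on the log2 scale (standard error 0.19, edgeR adjusted p = 0.942).

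The subunits of SF3A and SF3B showed no common direction. Of the 9 genes, 4 had a log2 fold change above 0, the median was -0.03, and none was called by edgeR or DESeq2 or had an unadjusted p under 0.05. SF3A2 (chr7:21392148-21400795), 1 of the 3 subunits of SF3A, differed most between libraries of all 64 genes, with an SD of log2 CPM of 0.92. It had between 11 and 151 counts per library. Female replicates 1 to 6 had 9.98, 2.61, 6.98, 7.84, 11.5 and 9.51 CPM, and male replicates 1 to 5 had 5.54, 1.16, 7.72, 5.08 and 4.75 CPM. The lowest library of each sex was replicate 2, far below the other libraries of its sex, and the rest of the males lay within the female range. Between the sexes SF3A2 differed by -0.72 on the log2 scale with a standard error of 0.43 (edgeR adjusted p = 0.518), and by -0.37 without female replicate 1 and -1.01 without male replicate 1. The same replicates were also the lowest of their sex for SF3A1, chosen for that after its values were seen, at 17.3 CPM in female replicate 2 and 13.1 CPM in male replicate 2, where the other libraries had 20.3 CPM or more. The fit put SF3A1 at -0.33 on the log2 scale (standard error 0.27, edgeR adjusted p = 0.666). SF3A3, the third subunit, did not share this drop and was at 231 CPM in female replicate 2 and 249 CPM in male replicate 2, within a range of 179.6 to 270.1 CPM.

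In SF3B the gene with the smallest p toward males was SF3B4 (chr3:20681702-20685434), which binds the intron upstream of the branch point. Female libraries had 143 to 239.8 CPM (median 186 CPM), and male libraries had 198, 189, 273, 245 and 198 CPM. The sexes overlapped widely, and the log2 fold change was 0.24 (standard error 0.16, edgeR adjusted p = 0.585). SF3B1, the subunit that clasps the branch point, is added after its values were seen. It was at 237 to 327 CPM in females and at 320.1, 279.6, 396, 259 and 124 CPM in males, so that male replicate 5 was far below all other libraries. Its log2 fold change was -0.10 (standard error 0.21, edgeR adjusted p = 0.887). Over the 6 SF3B genes log2 fold changes ran from -0.14 to 0.24.

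LSM4 (chr7:4881009-4893677) was the male-biased gene of the 5 families. The proteins LSM2 to LSM8 form the ring on U6 in the nucleus, LSM1 to LSM7 form the cytoplasmic ring that promotes decapping of mRNA, and LSM4 is part of both. Female libraries had from 103 to 179 CPM with a median of 138 CPM. Male replicates 1 to 5 had 178, 264, 175, 315 and 334 CPM. Replicates 2, 4 and 5 of the males were above every female library, while replicates 1 and 3 lay just under the highest female, replicate 6. The female mean was 140.3 ± 29.1 CPM (SD, n = 6) and the male mean 253 ± 74.5 CPM (SD, n = 5). LSM4 thus differed by a log2 fold change of 0.76 with a standard error of 0.18 (edgeR adjusted p = 0.0723). Within libraries that share the first number of their name the difference in log2 CPM was 0.47, 0.61 and 1.15, where the set with number 2 held 1 male library. DESeq2 gave LSM4 an adjusted p of 0.00565 at the same size. The edgeR call was lost in 8 of the 11 fits that left out one library, with values from 0.63 to 0.87 and adjusted p up to 0.192. It held without female replicate 3 and without male replicates 1 and 5. The call thus depended on each of the other 8 libraries, which were of both sexes, as leaving out any one of them lost it. The direction did not change. The annotation places a long non-coding RNA gene, LOC101902444, over LSM4, and reads of both could not be told apart if strand was not used.

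Of the 8 genes of the LSm rings, 5 had a log2 fold change above 0 and the median was 0.11. LSM4 had 1.94 to 2.79 counts for each count of its ring partner LSM2 in female libraries and 3.01 to 3.86 in male libraries, with no overlap. The ratios of LSM4 to LSM3 (0.187 to 0.370 in females and 0.316 to 0.738 in males) and to LSM7 (0.563 to 1.19 and 0.707 to 2.03) overlapped between the sexes. LSM2 and LSM7 lie over the annotated genes VARS1 and SPPL2B, so their counts share the limit given for LSM4. LSM7 is added after its values were seen as the ring protein next to LSM4 in size of difference. It was at 151 to 208 CPM in females and at 230.4, 212, 247, 354 and 165 CPM in males, and the log2 fold change was 0.40 (standard error 0.19, edgeR adjusted p = 0.407). LSM6 (chr17:12162216-12177198), also in both rings, had the smallest p toward females. Female libraries had 162 to 243 CPM with a median of 206 CPM, and male libraries had 140.1, 207, 155, 195 and 135 CPM. Replicates 1, 3 and 5 of the males were below all females, for a log2 fold change of -0.29 (standard error 0.17, edgeR adjusted p = 0.511). The 5 LSm proteins outside the rings had log2 fold changes from -0.31 to 0.26. They include LSM10 and LSM11 of the U7 snRNP, which trims histone mRNA, and LSM14A and LSM14B, which repress translation. LSM14B, with 10 to 68 counts per library, was the gene of the 5 families with the fewest counts in a library.

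**Figure D3:**
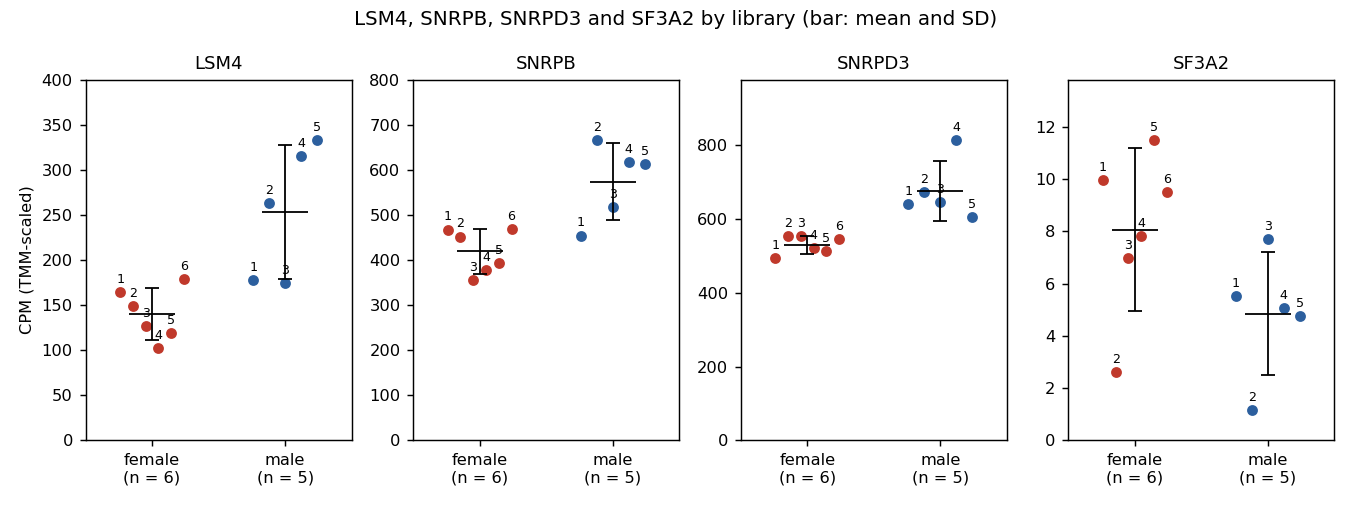
CPM (vertical axis, TMM-scaled) of LSM4, SNRPB, SNRPD3 and SF3A2 in each female (red) and male (blue) library, numbered by replicate, with the mean and SD of each sex as bars. LSM4 and SNRPB overlap in males 1 and 3 and in male 1, SNRPD3 does not overlap, and SF3A2 is lowest in replicate 2 of each sex, at 2.61 and 1.16 CPM.

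Compared as families by the median log2 fold change, the 5 groups stood at 0.18 for the SNRP proteins, 0.11 for the SR proteins, 0.09 for the LSm proteins, 0.01 for the hnRNPs and -0.03 for SF3A and SF3B. Values above 0 numbered 9 of 11, 6 of 11, 8 of 13, 11 of 20 and 4 of 9 in that order. The SNRP proteins were first in this order, and that place was lost without male replicate 4 and also without female replicate 6. In the fit without male replicate 4 the LSm median was 0.06 and the SNRP median 0.04 with 7 of 11 above 0. The hnRNP median was then 0.02, the SR median 0.00053 and the median of SF3A and SF3B -0.14. Without female replicate 6 the SR median was 0.14 and the SNRP median 0.10. Summed over a family, the SNRP proteins were at 3098 to 3521 CPM in females (median 3332 CPM) and at 3474, 3766, 3696, 4600.4 and 3259.9 CPM in males. Of the males, replicates 2, 3 and 4 were above the highest female and replicates 1 and 5 were within the female range. The LSm proteins summed to 1694 to 1788 CPM in females (median 1754 CPM) and to 1712, 1830.2, 1798, 2471 and 1811 CPM in males, so that replicate 4 stood alone. In SR proteins the sum was 3367 to 4335 CPM in females (median 3887 CPM) and 4171, 4213, 4549, 5004 and 3515 CPM in males. The hnRNPs summed to 5843 to 7368 CPM in females and 6327 to 7465 CPM in males, and SF3A with SF3B to 1209 to 1519 CPM and 1095 to 1563 CPM. The sums of all 5 families overlapped between the sexes. They add genes of unequal length and weight the strongly counted ones, so they are comparable between libraries and not between families.

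**Figure D4:**
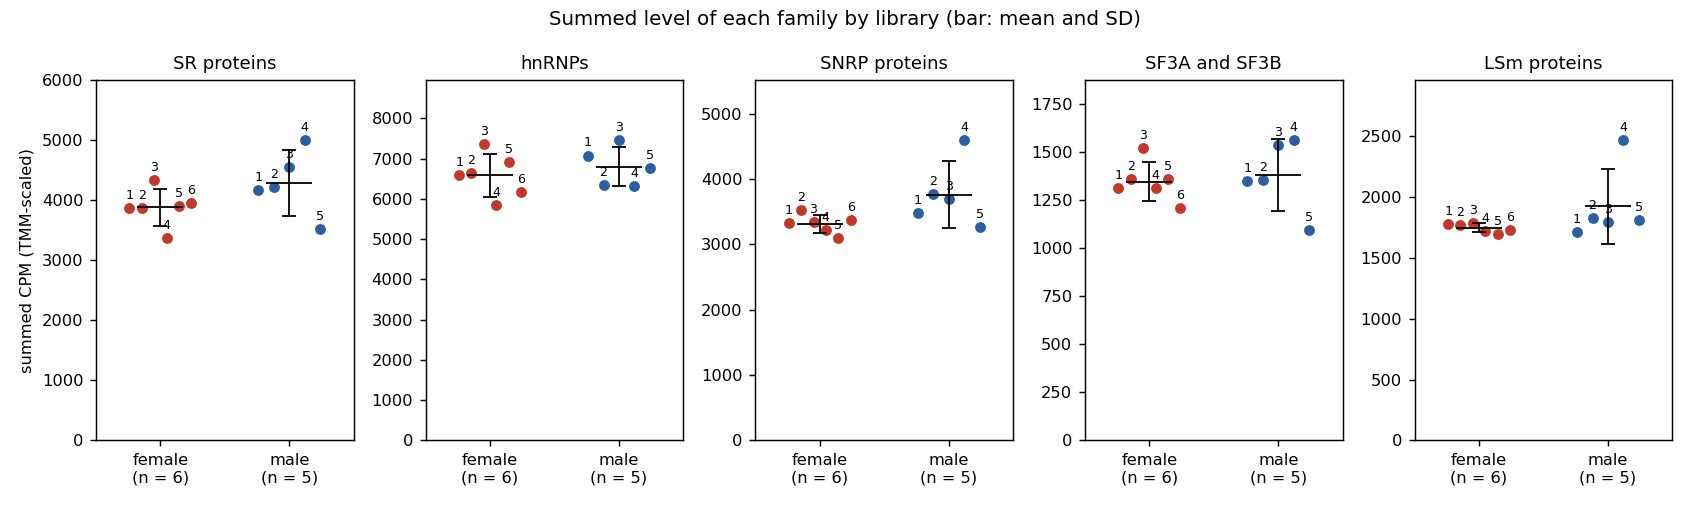
Summed CPM (vertical axis, TMM-scaled, from 0) of each family in each female (red) and male (blue) library, numbered by replicate, with the mean and SD of each sex as bars. Male 4 is the highest library for SR, SNRP, SF3 and LSm sums and reaches 2471 CPM for LSm proteins, where no other library passes 1830.2 CPM.

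The 64 genes varied less between libraries than most genes. The median SD of log2 CPM over the 11 libraries was 0.26 for the 64 and 0.51 for all tested genes. Their median mean level was 208 CPM against 14.8 CPM, and the part of the level in this difference was not tested. By family the median SD ran from 0.24 in the SR proteins through 0.26 in the SNRP proteins, 0.27 in the hnRNPs and 0.28 in SF3A and SF3B to 0.28 in the LSm proteins. The genes with the largest SD were SF3A2, HNRNPUL2 (0.75) and LSM4 (0.56), and those with the smallest were SRSF6, SNRPC (0.13) and HNRNPF (0.15).

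A few libraries were often the highest or the lowest. Male replicate 4 was the highest library for 18 of the 64 genes (28.1%, against 11.3% of all tested genes). These were 6 SNRP proteins, 5 LSm proteins, 4 SR proteins, 3 SF3 subunits and 0 hnRNPs. In that library LSM5 was at 227 CPM, where the other libraries had 97.6 to 172 CPM. Female replicate 3 was the highest for 12 genes (18.75%, against 9.32% of all tested genes), 8 of them hnRNPs. Male replicate 2 was the lowest for 12 genes (18.75%, against 9.08% of all tested genes), 6 of them hnRNPs and 3 of them SF3 subunits. Among these were HNRNPA3 at 61.3 CPM and SF3A2. Female replicate 4, the library with the fewest counts, was the lowest for 15 genes (23.4%, against 9.42% of all tested genes). Male replicate 5 was the lowest for 19 genes (29.7%) and the highest for 14 (21.9%), close to its share of all tested genes (26.8% and 24.9%). It was the highest for HNRNPA0, which binds AU-rich RNA, at 45.5 CPM, where no other library passed 29.8 CPM. Without this library the log2 fold change of HNRNPH2 was -0.79 and that of LSM4 0.70, and both were called. The genes named in this paragraph other than HNRNPH2, LSM4 and SF3A2 were chosen after their values were seen.

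**Figure D5:**
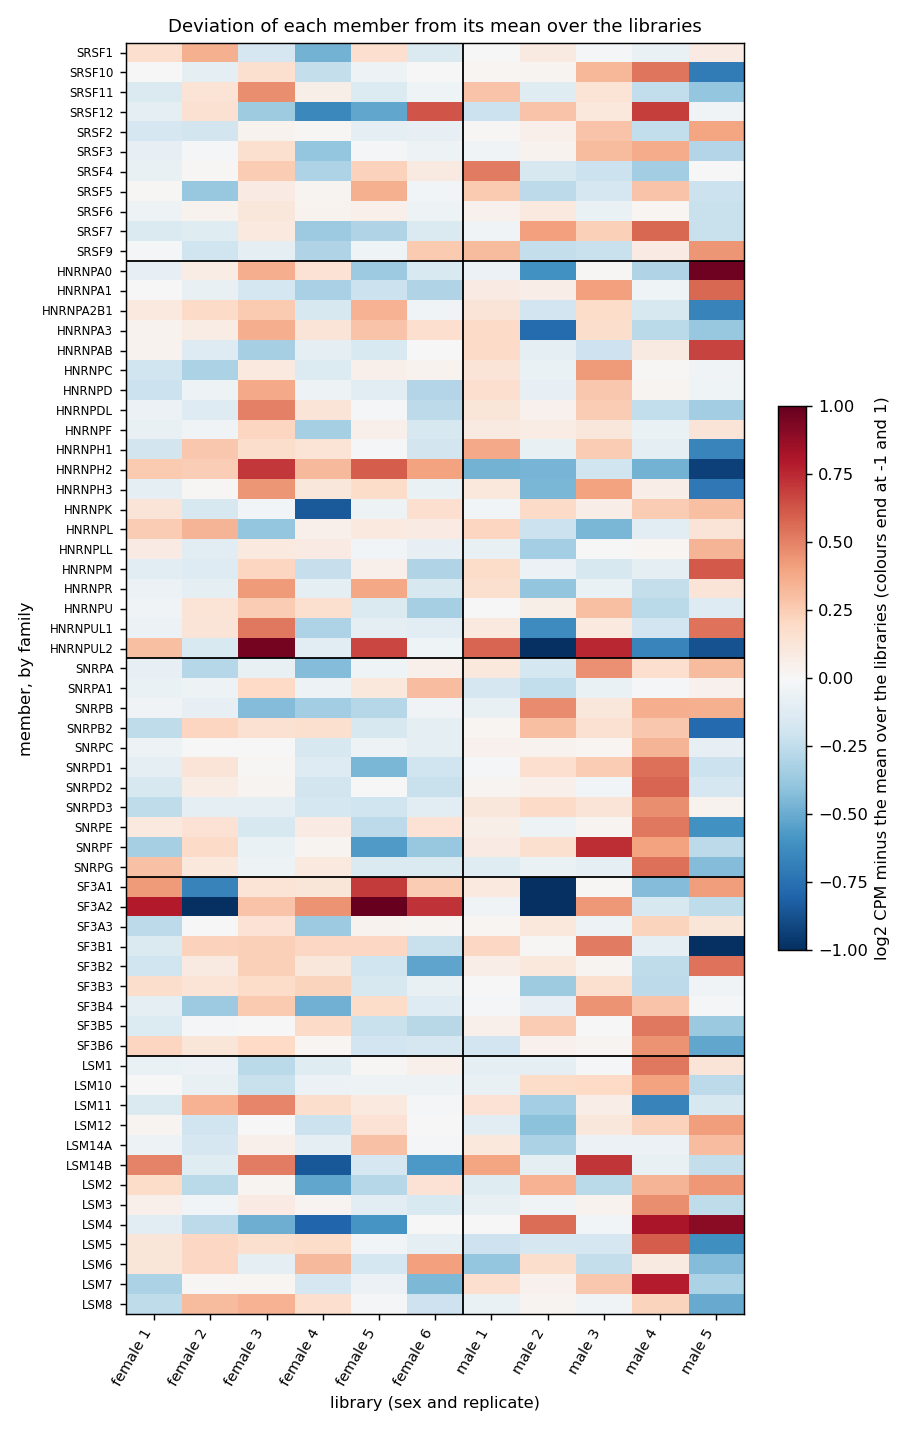
Deviation of log2 CPM from the gene's mean over the 11 libraries (colour, ending at -1 and 1) for each of the 64 genes, grouped by family, in the 6 female and 5 male libraries. Male 4 is above the mean in most SNRP and LSm rows, male 5 departs in both directions, and HNRNPH2 is above its mean in all females and below it in all males.

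Other genes of splicing outside the 5 families were taken from a list of 163 in 8 groups, of which 160 were tested, 148 on autosomes, 9 on the X and 1 on the Y chromosome, and 2 (RBMX and HTATSF1) on sequences with no chromosome in the annotation. The test called 4 of the 160 (2.50%), 3 female-biased and 1 male-biased, all of them on the sex chromosomes. Of the 148 autosomal genes 0 were called by edgeR or DESeq2, beside 0.707% and 2.9% of all tested autosomal genes. An unadjusted p under 0.05 was found for 14 of the 148, 9 of them higher in males, beside 11.1% of all tested autosomal genes. All 9 X-linked genes had a log2 fold change below 0, with a median of -0.70, and 3 were called by edgeR and 6 by DESeq2, beside 27.7% and 46.8% of all tested X-linked genes called female-biased. This was also the pattern of the X chromosome as a whole, where 449 of 476 tested genes were higher in females. Every female library was above every male one for 4 of the 9 X-linked genes, beside 139 of the 476. By group, edgeR called 0 of 18 partners of the U1 and U2 snRNPs, 0 of 20 proteins of the U5 and tri-snRNP, 1 of 27 of the Prp19 complex and catalytic steps, 1 of 9 of the minor spliceosome, 1 of 13 of snRNP assembly, 0 of 18 SR protein kinases and SR-related proteins, 0 of 7 of the exon junction complex and 1 of 48 other splicing regulators. In the same order, 1, 3, 3, 2, 4, 1, 0 and 9 genes had an unadjusted p under 0.05, and DESeq2 called 0, 0, 1, 2, 1, 0, 0 and 3.

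The female-biased genes of the list, like HNRNPH2, are X-linked. RBMX2 (chrX:14358363-14371745), a protein of the activated spliceosome, was at 16.6 to 23.3 CPM in females with a median of 18.6 CPM, and at 7.94, 7.5, 13.4, 6.67 and 3.83 CPM in males. The sexes did not overlap, and the log2 fold change was -1.28 (standard error 0.24, edgeR adjusted p = 0.0277). GEMIN8 (chrX:129489746-129507146), part of the SMN complex that loads the Sm ring onto snRNAs, was at 64.2 to 87.0 CPM in females with a median of 79.7 CPM, and at 45.9, 60.9, 40.9, 49.8 and 52.7 CPM in males. It did not overlap either, and the log2 fold change was -0.67 (standard error 0.15, edgeR adjusted p = 0.0616). PQBP1 (chrX:87013792-87019563), which binds a protein of the U5 snRNP, was at 5.64 to 11 CPM in females with a median of 6.73 CPM, and at 3.48, 2.01, 4.83, 3.42 and 2.67 CPM in males. Its log2 fold change was -1.11 (standard error 0.28, edgeR adjusted p = 0.0978), again without overlap. The call of GEMIN8 was lost in 6 of the 11 fits without one library and that of PQBP1 in 10, whereas RBMX2 was called in all 11.

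The minor spliceosome, which removes a small class of introns, held a pair of genes on the sex chromosomes that code for the factor at its 3′ splice site. ZRSR2 (chrX:127696762-127720514) was at 14.7 to 23.2 CPM in females (median 19.3 CPM) and at 9.02, 11.4, 14.4, 11.8 and 10.3 CPM in males. All females were above all males, narrowly, and the log2 fold change was -0.70 (standard error 0.18), just outside the edgeR threshold (adjusted p = 0.102). DESeq2 called ZRSR2 female-biased (adjusted p = 0.0111). ZRSR2Y (chrY:7326343-7381809), its copy on the Y chromosome, was male-biased and was at 35.2, 34.1, 39.2, 44.6 and 38.6 CPM in males. Of the females 4 had 0 counts, and the other 2 had 11 and 2 counts. The edgeR adjusted p of ZRSR2Y was 0.000137. ZRSR2 and ZRSR2Y are copies, and reads that fit both may be counted for either. The other X-linked genes tested were MBNL3 at -0.95 (standard error 0.28, edgeR adjusted p = 0.151), FMR1 at -0.84 (0.22, adjusted p = 0.103), RBM3 at -0.46 (0.19, adjusted p = 0.321), RBM10 at -0.45 (0.25, adjusted p = 0.475) and NONO at -0.44 (0.15, adjusted p = 0.239). They are RNA-binding regulators of splicing or of RNA handling more broadly, and edgeR called none of them. DESeq2 called FMR1 (adjusted p = 0.0146) and MBNL3 (adjusted p = 0.031) female-biased. Among autosomal genes of the list, SNRNP40 (chr2:122347180-122372984), the U5 protein that is built of WD repeats, came closest and was chosen after its values were seen. It was at 95.9 to 115 CPM in females and 146 to 164 CPM in males, with all males above all females and an edgeR adjusted p of 0.0526. Its log2 fold change of 0.57 (standard error 0.12) fell just short of the fold of 1.5. All males were above all females for 2 of the 148 autosomal genes of the list, beside 172 of all 12172 tested autosomal genes.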

How the data were processed

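The 11 RNA-seq libraries (SMART-Seq HT PLUS) were 6 female and 5 male pools of 2 halved embryos, and the Iso-seq sample was not used. The authors used fastp 0.20.0 for trimming and STAR 2.7.10b for alignment to ARS-UCD 2.0, allowing 3 mismatches at most, and deposited unnormalized counts per gene from featureCounts 2.0.3. The use of strand and of multi-mapped reads is not given in the sources used here. Symbols were joined to RefSeq (ARS-UCD2.0) for coordinates.

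Counts were analysed with edgeR 4.0.16 in R 4.3.3 (filterByExpr by sex, TMM, legacy quasi-likelihood fit). The model held sex and the first number of the library name (1 to 3), in place of the collection week, which the labels do not give. Whether the 2 are the same is not known. P-values were adjusted over the 12802 tested genes. The study's own tool, DESeq2 1.42.0, was an alternative, as were other blocks, scalings, filters and an FDR of 0.05, and fits without each library. CPM used TMM factors, and log2 CPM a prior count of 2. The common biological coefficient of variation was 0.403. On counts simulated for the male against female comparison over 12486 genes, edgeR found 80.2% of the genes set to differ by 2 on the log2 scale and 34.0% of those set to differ by 1, and 10.7% of the calls were false. For DESeq2 these shares were 93.8%, 48.9% and 29.2%. Library depths are given with the results. Pools are biological samples, but p-values cover the spread between pools only.

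The families and lists were chosen with earlier results of these data known. LSMEM1 and LSMEM2, of another family, were left out. Genes named singly were those called or sex-linked, HNRNPF and HNRNPH1 to HNRNPH3, the smallest p toward each sex per family, and the 3 largest and 3 smallest SDs, and from the list of other splicing genes those called or sex-linked. A part of the rule on levels per coding length was not applied because the lengths were not at hand. Other named genes were chosen after their values were seen. SMN1 had no row under that symbol, and SRPK3 and NOVA2, with 3 counts or fewer in any library, were too low to test.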

Additional observations from a re-analysis of the deposited data

Results flagged for a closer look

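Each sex of each named gene and family sum was examined apart, as 64 groups of libraries. In 6 of them the highest or lowest library lay farther from its neighbours than Dixon's limit allows. Chance gives about 1 in 20 groups for continuous values. That rate does not hold for ZRSR2Y and SRPK3 in females, where most counts were 0, so no excess over chance can be read from the 6. Male replicate 4 accounted for 3 of the 6. It had the lowest male level of HNRNPF at 818.5 CPM, where the other males had 902 to 934 CPM. It had the highest male level of SNRPC at 515.2 CPM, where the other males had 384 to 420.2 CPM. It also had the highest male sum over the LSm proteins at 2471 CPM, where the other males had 1712 to 1830.2 CPM. The other 3 were in females. ZRSR2Y was at 0.838 CPM (11 counts) in female replicate 1 and at 0 to 0.145 CPM in the other females. SRPK3, a kinase of SR proteins that was too low to test, was at 0.300 CPM (3 counts, at the limit that a count of 0 allows) in female replicate 5 and at 0 in the other females. RBM3 was at 205.5 CPM in female replicate 4 and at 152 to 165 CPM in the other females.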

How the results depend on the processing

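Without one library at a time, 1 to 2 genes of the 5 families, 2 to 6 of the 160 other splicing genes and 95 to 364 of all tested genes were called, the lowest of the last without male replicate 3 and the highest without male replicate 5. These fits have fewer libraries. The family medians ran from 0.00053 to 0.15 in SR proteins, from -0.14 to 0.065 in SF3A and SF3B and from 0.04 to 0.25 in SNRP proteins, in these 3 lowest without male replicate 4, and from 0.03 (without female replicate 6) to 0.15 in LSm proteins and -0.04 to 0.05 in hnRNPs. HNRNPH1, near 0, changed sign to 0.02 without female replicate 2, 0.03 without female replicate 5, 0.02 without male replicate 2 and 0.079 without male replicate 5.

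At an FDR of 0.05, 1 gene of the families (HNRNPH2), 2 other splicing genes and 125 of all genes were called. With the library number as a covariate, DESeq2 called 7 other splicing genes and 611 of all genes, and with both numbers of the library name 7 and 785. When all genes with 1 or more counts were kept, 743 genes were called, and with the newer quasi-likelihood method of edgeR, tried after the data were seen, 402. The fit with no replicate block called 7 other splicing genes. The numbers in the sample titles gave no clear pairing. The correlation of same-numbered libraries ran from -0.11 to 0.35 and passed 0.1 in 2 of 5 pairs, with a median of 0.03. Pairs that share the first number of the library name, the block of the main fit, did no better. Of these, 4 of 10 passed 0.1 and the median was 0.00049. Pairs that share both numbers passed 0.1 in 3 of 5, with a median of 0.24. With the title number as a replicate block, 1 gene of the families, 2 other splicing genes and 132 genes in all were called, and LSM4 was at 0.90 with an adjusted p of 0.181 in edgeR. The cause of these differences was not tested. HNRNPH2 was called in all settings tried, with adjusted p up to 0.0714, and no scaling moved the median of all genes by over 0.1. On simulated counts the test found 34.0% of the genes that differ by 1 on the log2 scale. Those genes were drawn from all genes kept. The genes of the families had a higher median level and a smaller median spread, so that share need not hold for them. Small differences in these families can still stay uncalled.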
